A study of Mus musculus with 6 samples.

Results

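The genes described here encode integrins, laminins and the molecules that tie laminin to the rest of the basement membrane, in mouse Sertoli cells with and without Pa1. They were chosen by name alone from the protein-coding genes of the deposited table: every Itga, Itgb, Lama, Lamb and Lamc symbol, both nidogens, and Hspg2 (perlecan), Agrn (agrin) and Dag1 (dystroglycan). Of 28262 listed genes, 47 met this rule. Among these 47, Itgb1bp1, Itgb1bp2, Itgb3bp and Itgbl1 carry integrin in their name but are not integrin subunits, and they are kept apart below.

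RNA-seq was performed on total RNA of Sertoli cells from C57BL/6 mice at 20 days of age, with 3 libraries of each genotype. The control cells, labelled PA1flox/flox and written Pa1F/F here, carry the floxed Pa1 gene. In the Pa1-/- cells the floxed gene was removed by Cre, whose expression the Sertoli cell promoter of Amh drives, so the study calls these animals Amh-pa1-/-. Both groups were untreated. The cells were released from the tubules with collagenase, hyaluronidase and trypsin, which cut matrix and surface proteins, then plated and kept at 34 °C in 5% CO2. The medium of this protocol held insulin, EGF and transferrin. Whether a library pools several animals, or comes from its own culture, is not stated in the sources used here, although the study speaks of biological replicates and independent repeats, so p-values measure the spread between these 3 libraries of a group, which may in part be technical. Pa1 itself was not analysed here, and the genotypes rest on the labels. Because whole preparations were sequenced, fewer cells of a type and less RNA per cell cannot be told apart.

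Sertoli cells stand on the basement membrane of the seminiferous tubule and, together with the peritubular myoid cells outside it, secrete its components. Laminins are trimers of an α, a β and a γ chain that form a network on the cell surface. Nidogens bridge this network to type IV collagen, while perlecan and agrin, both heparan sulfate proteoglycans, bind laminin and, on the cell side, dystroglycan. Integrins are receptors made of an α and a β subunit, and the α subunit largely sets whether they hold laminin, collagen, matrix proteins with an RGD motif, or ligands on other cells.

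The libraries held 13203757 to 16231443 counts on genes. Values are given as normalized counts, that is, counts scaled by TMM (trimmed mean of M values) factors to the mean effective size of the 6 libraries. A count of 3 then equals 2.72 to 3.38 normalized counts, and lower values are taken as not distinguishable from 0 at this depth. Replicates were not equally spaced. Pa1F/F replicates 1 and 3 differed by a biological coefficient of variation of 3.59%, and replicate 2 differed from them by 18.5% and 18.4%. Pa1-/- replicates 1 and 2 differed by 2.41%, and replicate 3 differed from them by 22.2% and 22.0%. Values without Pa1F/F replicate 2, without Pa1-/- replicate 3, and with each close pair added into a single library are therefore given for the integrin, laminin and linker genes named below whose call they change, and mostly as counts for the lists of other genes. Among Sertoli cell markers, Sox9 was at 3172 to 4983 and Wt1 at 4493 to 6084 normalized counts over the 6 libraries, while Rhox5 and Trf were near the floor with at most 15.5 and 6.01. Of 13 tested Sertoli markers, Clu, Inha and Aard fell and Cst9 and Cst12 rose, which is 38.5% called against 35.3% of all tested genes. With the close pairs summed 1 was lower and 1 higher, and without Pa1F/F replicate 3, 1 was higher. Without Pa1-/- replicate 3, 6 were lower and 4 were higher, and the lower calls came down to 1 when Pa1F/F replicate 1 or 3, or Pa1-/- replicate 1 or 2, was left out.

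Of the 47 genes, 38 had enough counts to be tested. With edgeR's quasi-likelihood test and Benjamini-Hochberg adjustment over all 14919 tested genes (called at an adjusted p under 0.05), 9 of the 38 fell in Pa1-/- cells and 10 rose; with the close pairs of replicates summed 6 fell and 2 rose. Over all tested genes 17.1% fell and 18.2% rose, so 35.3% were called in either direction, against 50% of these 38. The median log2 fold change of the 38 was -0.12, and that of all tested genes was 0.00. The genes that fell were Itgam, Itgb2, Itgax, Itga9, Lama4, Itgb3, Itgb5, Hspg2 and Lama5. Those that rose included Nid2, Nid1, Itga3, Itgb8, Lama2, Itga6, Itgb1, Itga11 and Itgav. At a fold change of at least 2, 7 fell and 3 rose, where the background was 6.56% and 5.44%. In 23 of the 38 the lowest library of the higher genotype exceeded the highest of the other, which held for 52.4% of all tested genes; the 23 comprise all 19 called genes together with Lama1, Lamb1, Itgb3bp and Dag1. With 3 libraries against 3, an exact two-sided permutation test of a single gene cannot give a p below 0.1, so calls rest on the fit across all genes.

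**Figure D1:**
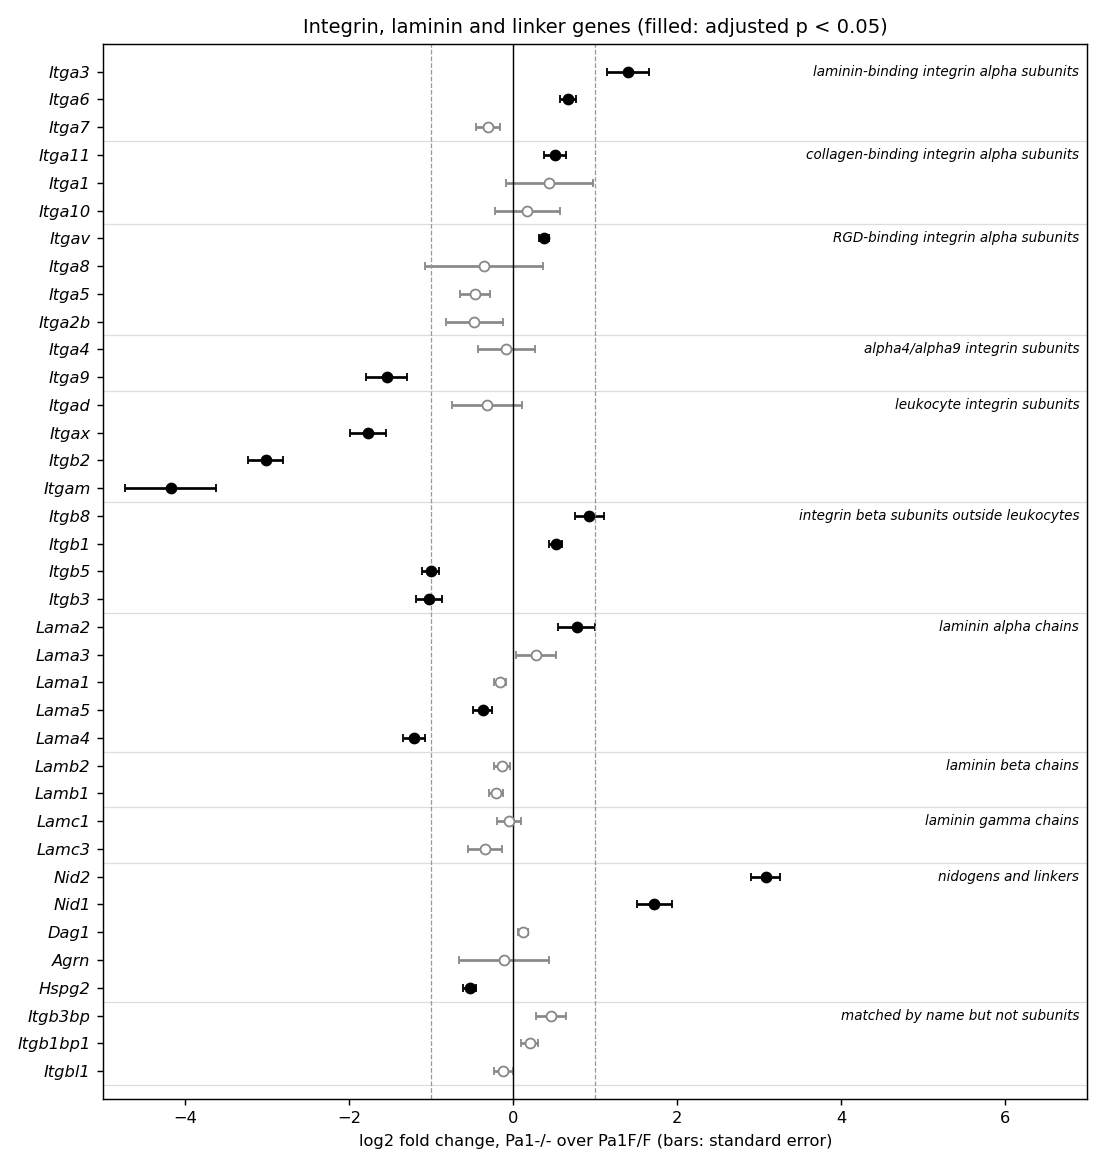
Log2 fold change of Pa1-/- over Pa1F/F for the tested genes described here, grouped by role; points are edgeR estimates, bars are standard errors, and filled points passed an adjusted p of 0.05. Itgam at -4.18, Itgb2 at -3.02 and Itgax at -1.77 lie farthest to the left and the leukocyte integrin Itgad at -0.32, while Nid2 at 3.08 and Nid1 at 1.72 lie farthest to the right.

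Nidogens showed the greatest increases. Nid2, at chr14:19751265-19811787 of GRCm38, measured 77.9, 49.4 and 76.6 normalized counts in Pa1F/F replicates 1 to 3 and 584, 570.0 and 568 in the Pa1-/- replicates. Its mean went from 68.0 ± 16.1 (SD, n = 3) to 574 ± 8.51, a log2 fold change of 3.08 with a standard error of 0.17 and an adjusted p of 0.000117. No other gene of the 38 rose as much, and its 3 Pa1-/- libraries lay close together. The end of Nid2 overlaps 437 bases of 2700060E02Rik on the opposite strand, which has 1074 to 1257 counts in every library; as the strand setting of the counting is not given in the sources used here, reads of the shared stretch cannot be assigned with certainty. Nid1, at chr13:13437551-13512269, encodes the main linker between laminin γ chains and type IV collagen. It measured 5297, 4101 and 5817 in Pa1F/F cells and 19022, 19006 and 12012 in Pa1-/- cells. The replicate of Pa1-/- that stood apart was the lowest of its group and still lay above all controls. The log2 fold change of Nid1 was 1.72 ± 0.21 (SE) with an adjusted p of 0.00163. Levels of different genes are compared per kilobase of exon, counting every annotated exon of a gene. Which exons the cells use was not examined, so such comparisons are approximate. On this scale both nidogens together went from 687 ± 119.6 (SD, n = 3) to 2313 ± 539.9 normalized counts. Nid1 made up 98.5% of that sum in Pa1F/F and 96.0% in Pa1-/- cells, so the far larger fold change of Nid2 concerned a minor part of nidogen RNA.

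The other linkers did not follow the nidogens. Hspg2, which encodes perlecan, fell from 13668 ± 988 to 9458 ± 320.5 normalized counts, a log2 fold change of -0.53 with an adjusted p of 0.00269 (0.0628 with the close pairs summed). Dag1, which encodes both subunits of dystroglycan, was at 13574 ± 518 and 14756 ± 262 and did not pass the test (adjusted p 0.193), although its genotypes did not overlap. Per kilobase it was the highest of the 47 in Pa1F/F cells after Itgb1, at 1950.3, and it was at 2120.2 in Pa1-/- cells. Agrn, which encodes agrin, could not be placed. Its Pa1F/F replicates measured 734, 2955 and 697, its Pa1-/- replicates 1229.9, 1298 and 1515, and its adjusted p was 0.885. Pa1F/F replicate 2 alone lay above the Pa1-/- libraries, and without it the log2 fold change of Agrn was 0.91 with an adjusted p of 0.00319. Pa1F/F replicate 2 was also high for Vcam1, which encodes a ligand of α4 integrin, with 3094 against 573 and 618 in the other controls, and for Icam1, a ligand of leukocyte integrins, with 793 against 148 and 147.

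**Figure D2:**
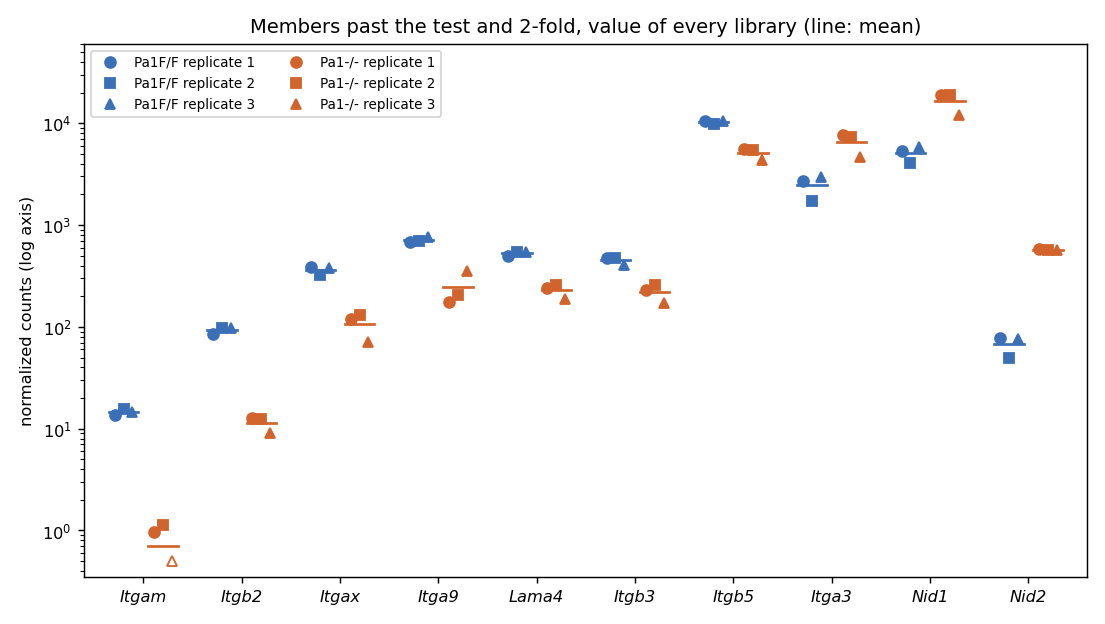
Normalized counts (log axis) of the 10 genes past the test with a fold change of at least 2, with every library as a point and a line at the mean of each genotype. In all 10 genes the 3 Pa1F/F and the 3 Pa1-/- libraries do not overlap. Pa1-/- replicate 3 is the Pa1-/- library closest to the controls for Nid1, Itga3 and Itga9, and by a small margin for Nid2.

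Among laminin-binding α subunits, 2 of 3 rose, where 18.2% of all tested genes did. Itga3, at chr11:95044474-95076801 on the minus strand, measured 2718, 1736 and 2964 in Pa1F/F cells and 7654, 7264 and 4637 in Pa1-/- cells. Its log2 fold change was 1.40 ± 0.25 (SE) with an adjusted p of 0.00661. The groups did not overlap, but both libraries that stood apart were the lowest of their genotype. Itga6, whose product pairs with the β subunits of Itgb1 and Itgb4, rose from 3751 ± 479.5 to 5950.5 ± 182, a log2 fold change of 0.67 with an adjusted p of 0.00303. Itga7, known from muscle as a laminin receptor, was at 806 ± 95.9 and 650.4 ± 120.2 with an adjusted p of 0.154. Without Pa1-/- replicate 3 it was lower in Pa1-/- cells by a log2 fold change of -0.46 with an adjusted p of 0.0165. With the close pairs summed, Itga3 and Itga6 kept similar fold changes of 1.42 and 0.72 and missed the threshold at adjusted p-values of 0.0723 and 0.0504.

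The β subunits of the non-leukocyte integrins moved in both directions. Itgb1, the common partner of most α subunits, rose from 16554 ± 307 to 23739 ± 1637 normalized counts, with a log2 fold change of 0.52 and an adjusted p of 0.00345. Itgb8, which encodes an αv partner known for activating latent TGF-β, rose from 2215 ± 175 to 4212 ± 1003. Its log2 fold change of 0.93 was the nearest below the 2-fold limit, and its adjusted p was 0.00764. Itgb5, at chr16:33829665-33949153, encodes an αv partner that binds vitronectin. It measured 10506, 9919.5 and 10483 in Pa1F/F cells and 5621, 5442 and 4339 in Pa1-/- cells. The controls agreed closely and every Pa1-/- library lay far below them. The log2 fold change of Itgb5 was -1.005 ± 0.11 (SE), just inside the 2-fold limit, with an adjusted p of 0.000876. Itgb3, at chr11:104608000-104670476, encodes another αv partner, and its product also pairs with that of Itga2b. It measured 472, 479 and 404 against 232, 258 and 173, without overlap. The log2 fold change of Itgb3 was -1.03 ± 0.16 (SE), also close to the limit, with an adjusted p of 0.00363. Without Pa1-/- replicate 3 the values of Itgb5 and Itgb3 were -0.90 and -0.88, short of 2-fold and still past the test. In the same fit Itgb8 was at 1.11, past 2-fold, with an adjusted p of 4.49e-05. Itgb4, the laminin receptor subunit of hemidesmosomes, and Itgb6, an epithelial αv partner, were too low to test, with at most 11.6 and 1.05 normalized counts.

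With the close pairs summed, Itgb1 and Itgb8 kept log2 fold changes of 0.57 and 0.88 and missed the threshold, at adjusted p-values of 0.0703 and 0.0877.

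The shares of the β chains differed in the same directions. Of all integrin β transcripts per kilobase of exon, Itgb1 made up 61.2% ± 0.44 (SD, n = 3) in Pa1F/F and 77.7% ± 4.08 in Pa1-/- cells, and Itgb5 made up 32.2% ± 0.36 and 14.2% ± 2.13. Among the αv partners other than Itgb1, Itgb5 went from 84.6% ± 0.15 to 64.4% ± 2.73 and Itgb8 from 11.4% ± 0.55 to 32.7% ± 2.63. Neither genotype overlapped the other in any of these 4 shares. The αv subunit itself, Itgav, rose from 5461 ± 114 to 7104 ± 369 normalized counts with a log2 fold change of 0.38 and an adjusted p of 0.00415 (0.0886 with the close pairs summed), and its share of integrin α transcripts was 18.5% and 18.9%. The sum over β chains per kilobase went from 4528 ± 106 to 5115 ± 82.1. These shares describe RNA and say nothing of which pairs reach the cell surface.

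**Figure D3:**
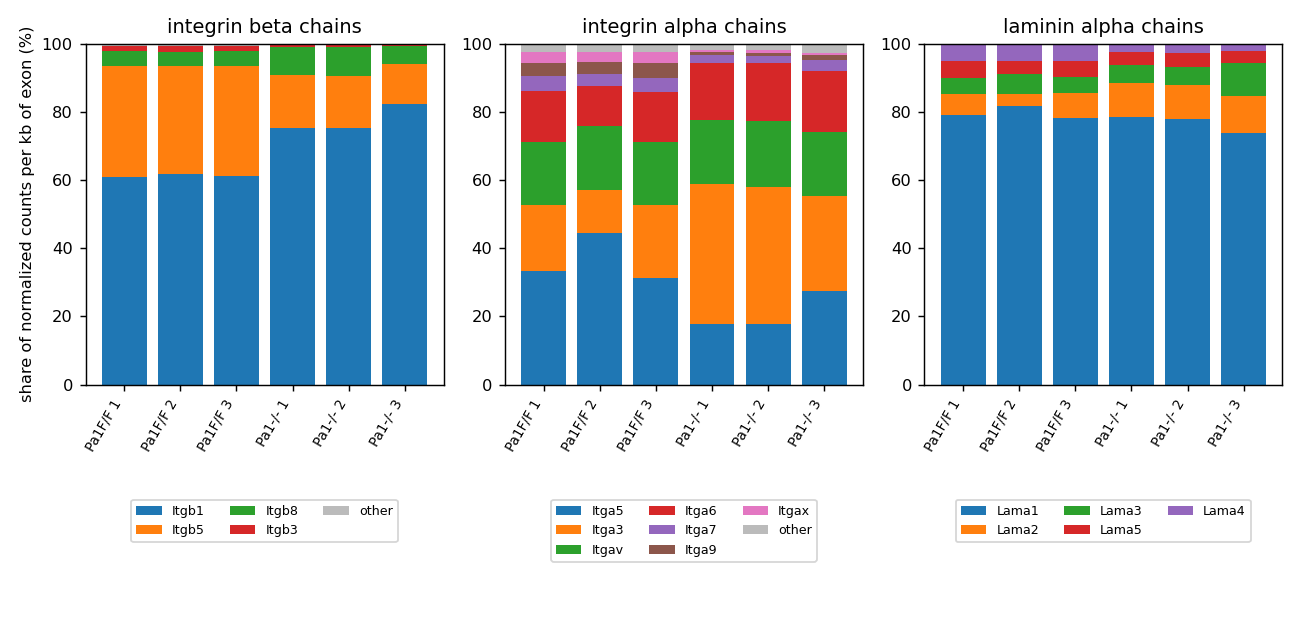
Share of each chain in its class (percent of normalized counts per kilobase of exon), stacked to 100% for every library, for integrin β, integrin α and laminin α chains. In the integrin β panel the Itgb1 part grows from 61.2% to 77.7% and the Itgb5 part shrinks from 32.2% to 14.2%, while in the laminin α panel Lama1 stays the main chain at 79.7% and 76.8%.

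Of the other RGD-binding α subunits, Itga5, the fibronectin receptor subunit, was at 4246, 5722 and 3963 in Pa1F/F cells and 2988, 2957 and 4149 in Pa1-/- cells. The genotypes overlapped through Pa1-/- replicate 3 alone, and the adjusted p was 0.0912. Without that library the log2 fold change of Itga5 was -0.64 with an adjusted p of 0.0127. Per kilobase, Itga5 was the leading α chain of Pa1F/F cells with 36.5% ± 7.17 of the sum, and Itga3 that of Pa1-/- cells with 36.5% ± 7.44, where Itga5 had 21.0% ± 5.52. Itga3 had 17.8% ± 4.77 in the controls, and its genotypes did not overlap on this scale. The sum over α chains went from 2391 ± 17.0 to 3043 ± 171. Without division by exon length, Itgav exceeded Itga5 in Pa1F/F cells, with means of 5461 and 4644 normalized counts. Itgav also exceeded Itga3 in Pa1-/- cells, with 7104 and 6518. Itga8 had 13.6, 10.7 and 16.8 normalized counts in Pa1F/F cells and 2.93, 4.51 and 24.0 in Pa1-/- cells, with an adjusted p of 0.729. Without Pa1-/- replicate 3 its log2 fold change was -1.86 with an adjusted p of 0.0184. In that fit Itga8 passed the filter on low counts only through the control libraries, so the values serve as a description. Itga2b, the platelet subunit, had 24.96 ± 7.15 and 18.1 ± 5.49, with an adjusted p of 0.324.

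Itga9, at chr9:118606690-118901003, encodes the subunit that binds tenascin-C, osteopontin and related ligands, and it fell. It measured 679, 690.4 and 766 in Pa1F/F cells and 175, 204 and 353 in Pa1-/- cells. Pa1-/- replicate 3 was the highest of its group and still under the lowest control by a wide margin. The log2 fold change of Itga9 was -1.54 ± 0.25 (SE) with an adjusted p of 0.00439; it was -1.91 without Pa1-/- replicate 3, and with the close pairs summed its adjusted p was 0.0681. The antisense gene Gm2415 overlaps Itga9 and had at most 15 counts in any library. Itga4, the related subunit that binds Vcam1, was at 40.2 ± 8.21 and 37.7 ± 16.7 and did not pass the test, with an adjusted p of 0.87.

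The collagen-binding α subunits were rare. Itga11 rose from 132 ± 12.5 to 187 ± 20.5 normalized counts, with a log2 fold change of 0.50 and an adjusted p of 0.026. The call of Itga11 was lost when Pa1F/F replicate 1, 2 or 3, or Pa1-/- replicate 2, was left out, with adjusted p-values of 0.0525 to 0.0886, and with the close pairs summed at 0.118. Itga1 measured 58.0, 34.9 and 56.6 in Pa1F/F cells and 50.8, 27.0 and 124 in Pa1-/- cells, and Itga10 measured 49.8, 56.2 and 65.0 and then 40.02, 43.9 and 108. In both genes Pa1-/- replicate 3 was the highest of all libraries and the other Pa1-/- libraries were within or below the control range. Itga2 was not tested and had at most 23.2 normalized counts.

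Pa1-/- replicate 3 also carried more of the peritubular myoid markers. Myh11, the smooth muscle myosin heavy chain, was at 481 to 649 in Pa1F/F cells and at 216, 164 and 1605 in the Pa1-/- replicates. Of the 6 myoid markers, the sum of the 5 without Acta2 was 727 to 1033 normalized counts in Pa1F/F cells and 367, 293 and 3255 in Pa1-/- cells. With Acta2 the sum was 3264 to 4164 in Pa1F/F cells and 12679, 12179 and 18639 in Pa1-/- cells. Of the 5 tested, only Acta2 passed the test, where 18.2% of all tested genes rose and 17.1% fell with all libraries. Acta2 rose from 2968 ± 378 to 13194 ± 1908, and without Pa1-/- replicate 3 the lower calls were 3. Among the Pa1-/- replicates that library was also the highest for many of the 47 genes, among them Itga1, Itga4, Itga5, Itga7, Itga8, Itga9, Itga10, Itga11, Itgb1, Lama3, Lamb2 and Lamc3, and the part of myoid cells in these values was not tested.

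Of the 4 tested leukocyte integrins 3 fell, where 17.1% of all tested genes did, and Itgam, Itgb2 and Itgax had the lowest log2 fold changes of the 38 tested genes. Itgb2, at chr10:77530252-77565708, encodes the β subunit shared by the integrins of macrophages and other white blood cells. It measured 84.3, 97.8 and 96.5 in Pa1F/F cells and 12.7, 12.4 and 9.02 in Pa1-/- cells, a log2 fold change of -3.02 ± 0.21 (SE) with an adjusted p of 0.000218. Every control lay far above every Pa1-/- library. Like Itgam, Itgb2 passed the filter on low counts only through the control libraries, and the values serve as a description. Itgam, at chr7:128062640-128118491, encodes the α subunit also known as CD11b. Its normalized counts were 13.6, 15.5 and 14.7 in Pa1F/F cells and 0.976, 1.13 and 0 in Pa1-/- cells. It passed the filter on low counts only through the control libraries, so its call follows from its level there together with near absence in the others. Summed over libraries it had 45 counts against 2, a ratio of 21.2 with an exact 95% interval of 5.54 to 180 that covers counting error only. Under a minimum of 10 counts per library, Itgb2 and Itgam were not tested. Itgax, at chr7:128129547-128150657, encodes CD11c, known from dendritic cells and some macrophages. It measured 391, 326 and 379 in Pa1F/F cells and 120.1, 129.6 and 71.1 in Pa1-/- cells. Its log2 fold change was -1.77 ± 0.22 (SE), with an adjusted p of 0.00168. Itgax exceeded Itgb2, the partner of its product, in every library, and per kilobase it was at 75.3 and 22.0 against 28.6 and 3.504 for Itgb2. Itgad was at 44.5 ± 5.39 and 35.7 ± 18.8 with an adjusted p of 0.592, and it overlaps Cox6a2 and the antisense gene Gm44850 on the opposite strand. Itgal, Itgae, Itgb7 and Itgb2l were not tested, with at most 8.71 normalized counts each.

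Markers of macrophages moved with these genes. Of 11 listed, 8 were tested, 6 fell and none rose, against 17.1% and 18.2% of all tested genes. Adgre1, Csf1r, Ptprc, Laptm5 and Tyrobp passed the filter on low counts only through the control libraries where they are high, and under a minimum of 10 counts per library 1 marker was called lower, so the count of 6 is a description of these libraries. Adgre1, Csf1r, Cd68, Ptprc, Laptm5 and Tyrobp fell, for example Ptprc, the general leukocyte marker CD45, from 26.3, 31.95 and 22.0 to 4.88, 4.51 and 2.004 normalized counts. Mrc1, with 984 ± 38.8 and 1109 ± 155, and C1qb did not pass the test, at adjusted p-values of 0.254 and 0.075, and without Pa1-/- replicate 3, 1 marker was called higher. Without Mrc1, which alone exceeded the other 10 together, the summed markers were at 488 to 507 in Pa1F/F and 97.2 to 123 in Pa1-/- cells; with it they were at 1437 to 1510 and 1029 to 1338. The 8 leukocyte integrin genes summed to 490.9 to 553 and 108 to 192. Adgre1 and Tyrobp were at or under the floor of 3 counts in most Pa1-/- libraries, and Tyrobp had no count in Pa1-/- replicate 3. The part of leukocytes in the fall of Itgb2, Itgam and Itgax was not tested.

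**Figure D4:**
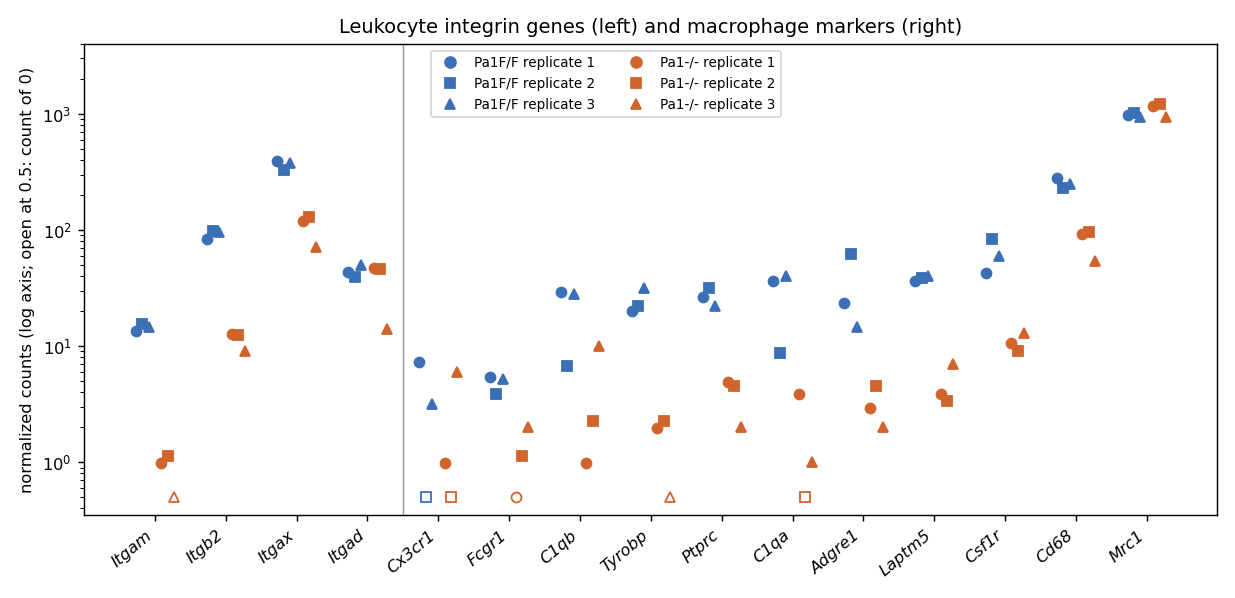
Normalized counts (log axis) of leukocyte integrin genes, left of the line, and macrophage markers, right of it, in every library; open points at 0.5 mark a count of 0. Itgam, Itgb2 and Itgax fall together with 6 of the markers, while Mrc1 has means of 984 and 1109.

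Among laminin α chains, Lama4 fell and Lama2 rose. Lama4, at chr10:38965515-39110188, encodes a chain known from vessel and muscle basement membranes. It measured 498, 547 and 547 in Pa1F/F cells and 243, 258 and 186 in Pa1-/- cells. The groups were well separated, and the log2 fold change was -1.21 ± 0.13 (SE) with an adjusted p of 0.00106. Lama2, which encodes the α chain of merosin, rose from 688, 442 and 893 to 1121, 1160.3 and 1177, with a log2 fold change of 0.77 and an adjusted p of 0.037. The controls of Lama2 spread widely while the Pa1-/- libraries did not, and the call was lost when Pa1F/F replicate 1, or Pa1-/- replicate 1 or 2, was left out, with adjusted p-values of 0.0824 to 0.102, and with the close pairs summed at 0.11. Lama5 fell from 357 ± 28.4 to 276 ± 29.7, a log2 fold change of -0.37 with an adjusted p of 0.0414, close to the threshold. The call of Lama5 was lost when Pa1F/F replicate 1 or 3, or Pa1-/- replicate 1 or 3, was left out, with adjusted p-values of 0.0614 to 0.139, and with the close pairs summed at 0.164. It was also lost with no filter beyond 1 count in total, at 0.0787. Lama1, the chief α chain here, was at 5256 ± 342 and 4685 ± 300.0 and did not pass the test (adjusted p 0.129), and Lama3 was at 446 ± 73.3 and 540.3 ± 185. By share per kilobase, Lama1 held 79.7% ± 1.86 and 76.8% ± 2.63, Lama2 went from 5.61% ± 1.95 to 10.3% ± 0.51, and Lama4 from 4.98% ± 0.12 to 2.32% ± 0.31.

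The laminin β chains and the main γ chain were not called. Neither Lamb1, with 9599 ± 953 and 8273 ± 78.3 normalized counts, nor Lamb2, with 2642 ± 206 and 2403 ± 296, passed the test, at adjusted p-values of 0.0877 and 0.333. Lamb1 was lower by a log2 fold change of -0.29 with an adjusted p of 0.0182 once Pa1F/F replicate 2 was left out, and Lamb2 by -0.24 with an adjusted p of 0.0274 once Pa1-/- replicate 3 was. Lamb3, a chain of epithelial laminin, was not tested and had at most 7.34 normalized counts. Lamc1, the common γ chain, was at 5899.9 ± 72.0 and 5686 ± 1154 with an adjusted p of 0.8. Lamc3 was at 502 ± 36.8 and 396 ± 123; without Pa1-/- replicate 3 it was lower by a log2 fold change of -0.62 with an adjusted p of 0.00283. Lamb1 made up 67.3% and 66.2% of β transcripts per kilobase and Lamc1 76.9% and 73.7% of γ transcripts.

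The genes matched by name only did not pass the test. Itgbl1 was at 359 ± 51.8 and 330.5 ± 8.31, Itgb1bp1 at 227 ± 8.85 and 260.2 ± 26.2, and Itgb3bp at 54.7 ± 6.97 and 75.1 ± 9.59 normalized counts. Itgb1bp2, a muscle protein also called melusin, was not tested. Both overlap well-counted genes on the opposite strand, Itgb1bp1 Asap2 and Cpsf3, and Itgb3bp Pgm2.

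The start regions of the genes were read from the RefSeq promoter table (build GRCm38.p6), which held 36 windows for 31 of the 47 genes. Upstream stretches of 200 bases are shown 5′ to 3′ on the strand of the gene for 2 genes that fell and 2 that rose by at least 2-fold, as examples of a leukocyte integrin, an αv partner, a laminin receptor and a linker. They end at the RefSeq start. For Itgax, Itga3 and Nid1 that start lies inside the gene bounds of the deposited table, so part of the stretch does too. Capitals mark matches, on either strand, to the AP-1 motif TGANTCA and the GC box GGGCGG.
Itgax, chr7:128129350-128129549, plus strand: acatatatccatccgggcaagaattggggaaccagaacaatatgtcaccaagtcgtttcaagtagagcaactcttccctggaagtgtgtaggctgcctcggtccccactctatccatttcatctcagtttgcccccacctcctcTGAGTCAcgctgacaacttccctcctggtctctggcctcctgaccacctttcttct
Itgb5, chr16:33829465-33829664, plus strand: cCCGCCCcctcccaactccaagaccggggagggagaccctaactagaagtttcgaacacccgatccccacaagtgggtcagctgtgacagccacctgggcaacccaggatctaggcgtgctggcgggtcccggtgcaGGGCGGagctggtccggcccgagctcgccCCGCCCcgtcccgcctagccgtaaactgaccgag
Itga3, chr11:95076715-95076914, minus strand: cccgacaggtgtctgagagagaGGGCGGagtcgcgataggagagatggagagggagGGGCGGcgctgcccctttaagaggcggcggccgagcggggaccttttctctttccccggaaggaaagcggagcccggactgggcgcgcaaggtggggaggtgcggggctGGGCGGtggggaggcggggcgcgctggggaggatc
Nid1, chr13:13437402-13437601, plus strand: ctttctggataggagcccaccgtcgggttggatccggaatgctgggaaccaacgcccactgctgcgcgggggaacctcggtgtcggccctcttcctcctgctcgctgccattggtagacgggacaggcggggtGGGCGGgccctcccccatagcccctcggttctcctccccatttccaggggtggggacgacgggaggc
The AP-1 motif was found in 3 of the 36 windows, or 8.33%, against 7.81% of all 32851 windows of the table. It lay 56 bases before the start of Itgax, and the other matches lay after a start, in Itga9 and in a second start of Itga3. The GC box was found in 52.8% of the windows of these genes and in 35.7% of all windows. Itgb5, which fell, and Itga3, which rose, each had 3 GC boxes in the stretch shown, and Nid1 had 1. A match is a run of letters and not evidence of binding.

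Genes that act with these receptors were read from lists of pathway members. Of the integrin adaptors and activators, which link the β subunit tail to actin, 20 were tested, of which 9 rose and 2 fell, where 18.2% of all tested genes rose and 17.1% fell. The median log2 fold change of the list was 0.29. Vcl (vinculin) rose from 7680.4 ± 827 to 14859 ± 334 normalized counts and Fermt2 (kindlin-2) from 2355 ± 191 to 4287 ± 116. Tln1 (talin), Zyx, Parva, Parvb, Lims1, Lims2 and Ptk2 (focal adhesion kinase) also rose. The greatest increase in the list was that of Lims2, with a log2 fold change of 1.88 ± 0.34 (SE) and an adjusted p of 0.00667 (0.0729 with the close pairs summed). Fermt3, the kindlin of blood cells, fell by a log2 fold change of -1.09 with an adjusted p of 0.045, having passed the filter only through the controls, and Tns1 by -0.37; the call of Fermt3 held without Pa1-/- replicate 3 and was lost when any other library was left out and, at 0.116, with the close pairs summed. It was lost as well by the Wald test of DESeq2, at 0.0626, with no filter beyond 1 count in total, at 0.0642, and with the replicate block, at 0.0762. Pxn (paxillin) and Src did not pass the test, at adjusted p-values of 0.978 and 0.897. Ilk, which encodes integrin-linked kinase, had too few counts to test, with at most 11.7 normalized counts. The strand setting of the counting is not given, and its part in the low count of Ilk was not tested. With the close pairs summed, 4 of the list rose and none fell, and without Pa1-/- replicate 3, 12 rose, Pxn among them, and 2 fell.

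Of the matrix ligands of RGD and α4 or α9 integrins, 14 were tested, of which 5 rose and 2 fell, against 18.2% and 17.1% of all tested genes, and the median log2 fold change was -0.11. Spp1 encodes osteopontin, a ligand of αv and α9 integrins that is also made by macrophages. It was the most abundant of the list per kilobase in Pa1F/F cells and fell from 54594, 62932 and 53581 to 8151, 7901 and 4212 normalized counts, a log2 fold change of -3.08 with an adjusted p of 0.000453. Emilin1, another α9 ligand, fell by a log2 fold change of -1.54 with an adjusted p of 0.00402 (0.0571 with the close pairs summed). Npnt (nephronectin), a ligand of α8 integrin, rose by 1.86 with an adjusted p of 0.00452 (0.061 with the close pairs summed), and Fras1, a protein of epithelial basement membranes, rose by 2.44 from 29.5 ± 7.07 to 160.4 ± 17.2 normalized counts. Cyr61, Ctgf and Thbs1 rose too, Cyr61 by a log2 fold change of 1.28. Fn1 (fibronectin) was at 10781 ± 1199.6 and 8962 ± 2044 with an adjusted p of 0.253, and Tnc (tenascin-C) at 6948 ± 2865 and 3862 ± 2781 with an adjusted p of 0.236. Without Pa1-/- replicate 3, 5 of this list rose and 5 fell, Fn1 and Tnc among them, without Pa1F/F replicate 1 the calls that rose came down to 3, and with the close pairs summed 2 rose and 1 fell.

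Dystroglycan is held at the membrane by the dystrophin complex and binds laminin through sugars that a chain of enzymes builds. Of 17 tested genes of this complex and pathway 5 rose and 3 fell, where 18.2% of all tested genes rose and 17.1% fell. Sntb1, a syntrophin, fell from 501, 427 and 458 to 67.4, 65.3 and 65.1 normalized counts, a log2 fold change of -2.81 ± 0.10 (SE) with an adjusted p of 4.29e-05. Dtnb (dystrobrevin beta) fell by -0.52 with an adjusted p of 0.031. Utrn (utrophin), Sgce and the glycosylation gene Pomgnt1 rose, by log2 fold changes of 0.45, 0.57 and 0.39. Dmd (dystrophin) was at 1621 ± 94.2 and 1715 ± 151 with an adjusted p of 0.47. With the close pairs summed, 1 of this list rose and 2 fell.

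Of 24 other basement membrane components and receptors, all tested, 9 fell and 5 rose, against 17.1% and 18.2% of all tested genes, with a median log2 fold change of -0.29. Col4a1 and Col4a2, the main type IV collagen chains and the partners of nidogen, fell from 36172 ± 4175 to 19906 ± 3593 and from 30126 ± 2065 to 13869.7 ± 1756 normalized counts. Col4a3, Col4a4 and Col4a6 fell and Col4a5 rose, the last from 5732 ± 453 to 9515 ± 303. Col18a1, whose product gives rise to endostatin, fell by a log2 fold change of -1.86 with an adjusted p of 0.000114, and Hmcn1 by -1.47 with an adjusted p of 0.0228 that was lost when Pa1F/F replicate 2, or Pa1-/- replicate 1 or 2, was left out and, at 0.124, with the close pairs summed. Bcam, a receptor for the laminin α chain of Lama5, rose from 576, 469 and 512 to 2047, 2040.2 and 2674, a log2 fold change of 2.12 with an adjusted p of 0.000159. Smoc2 and Fbln1 rose by 1.45 and 1.29 on the log2 scale, and with the close pairs summed the call of Fbln1 was lost at an adjusted p of 0.075. Without Pa1-/- replicate 3, 11 fell and 8 rose, without Pa1-/- replicate 1 the calls that fell came down to 5, and with the close pairs summed 2 fell, Col18a1 and Col4a2, and 3 rose.

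**Figure D5:**
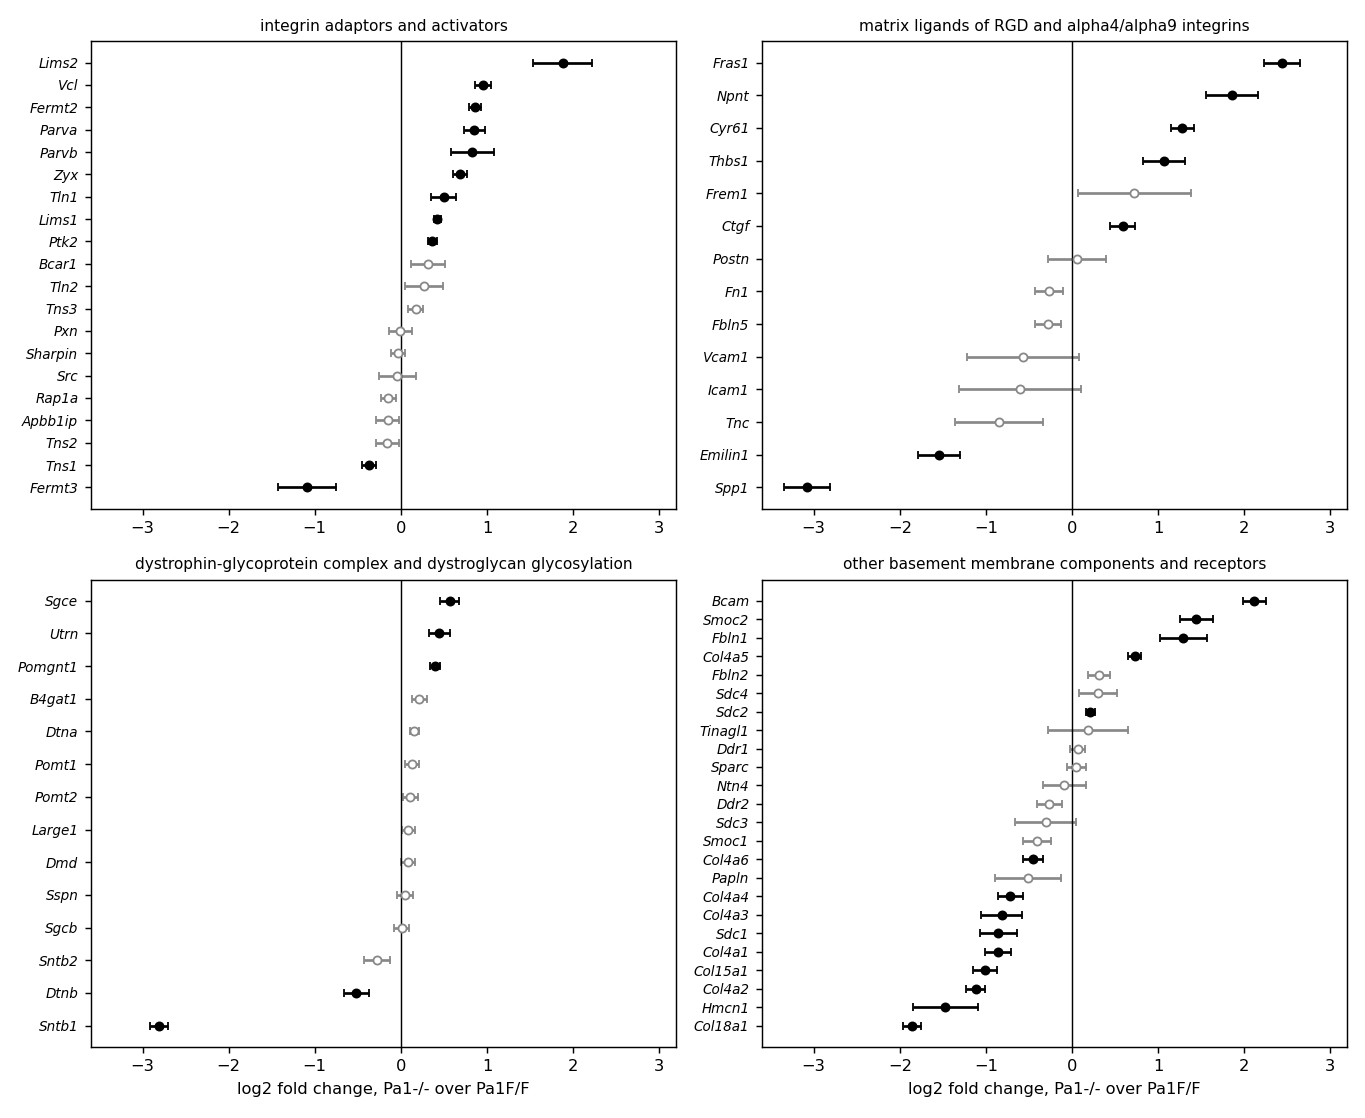
Log2 fold change of Pa1-/- over Pa1F/F for the genes described here from the 4 lists of integrin adaptors, integrin ligands, dystroglycan partners and other basement membrane genes; filled points passed an adjusted p of 0.05 and bars are standard errors. Of the adaptors 9 rose and 2 fell, and of the other basement membrane genes 9 fell and 5 rose.

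Markers of other cell types were also called, where 17.1% of all tested genes fell and 18.2% rose. All 3 tested Leydig cell markers fell, with Cyp11a1 going from 4386 ± 269 to 364 ± 12.2 normalized counts, and with the close pairs summed 1 was called. Of 4 tested endothelial markers Pecam1 and Cdh5 fell and Vwf rose to at most 25.4 normalized counts. With the close pairs summed 1 was called lower and none higher. The call of Vwf was also lost when Pa1F/F replicate 1 or 3, or Pa1-/- replicate 1 or 2, was left out. It was lost as well under a minimum of 10 counts per library and with the replicate block. Of 5 tested markers of mesothelium and rete testis Upk3b, Krt19 and Lrrn4 rose, Upk3b from 8.62 ± 5.30 to 270.4 ± 59.4. Upk3b and Krt19 passed the filter only through the Pa1-/- libraries, and under a minimum of 10 counts per library 1 was called. Of 3 tested spermatogonial markers Kit and Gfra1 fell, and neither was called with the close pairs summed. Under a minimum of 10 counts per library 1 of them was called. Single tested markers of spermatocytes and spermatids did not pass the test. The part of these cells in the values of Lama4, Itga3, Itgb8, Nid1 and Nid2 was not tested.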

How the data were processed

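Total RNA of Sertoli cells, for 3 Pa1F/F and 3 Pa1-/- libraries, was extracted with Trizol and sequenced on an Illumina HiSeq instrument from NEBNext Ultra libraries. The authors aligned reads with HISAT2 2.1.0 to GRCm38 and counted them per gene with HTSeq 0.6.0, per the submitters' processing notes, and deposited them as raw counts. The strand setting is not given in the sources used here. The deposited table also holds the authors' own comparison (a mean, fold change, p-value, adjusted p-value and direction per gene), which was not used. Genes with no count in any library are not listed. Groups came from the genotype labels.

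Counts were read with Python 3.11.15 and pandas 2.3.3 and tested with edgeR 4.0.16 in R 4.3.3 (filterByExpr with a minimum count of 10 and a minimum total of 15, TMM factors 0.990 to 1.03, glmQLFit and glmQLFTest on genotype), with Benjamini-Hochberg adjustment over 14919 genes. The code was first tested on simulated data. The study's threshold of an adjusted p of 0.05 and a log2 fold change of 1 was used for the stricter counts, although the methods name DEGseq. Levels per kilobase used the union of exon lengths from GENCODE (GRCm39), lengths only, and gene positions are those of the deposited table. Single genes were also compared by an exact two-sided permutation test. Intervals and the floor of 3 counts cover counting error only.

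The members and all lists were chosen with earlier results of these data known. Genes past both thresholds are given in every library, other called members by their fold change, and of each pathway list at most 5 genes past both thresholds by size of change; other genes of these lists that are named were chosen after their values were seen. Alternatives were the Wald test and the size factors of DESeq2 1.42.0, scaling by library size alone, limma-voom (limma 3.58.1), no filter on low counts, a minimum of 10 counts per library, a block for the replicate number, close pairs of replicates summed, and each library left out. The use of these alternatives on the pathway and marker lists and on chain shares was added after seeing the data. A few genes that enter the counts are not reported here.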

Additional observations from a re-analysis of the deposited data

How the results depend on the processing

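The counts of genes called were 9 lower and 10 higher, and 7 and 3 at 2-fold, by limma-voom, by the size factors or the Wald test of DESeq2, and by library size alone as well. They were 8, 10, 6 and 3 with no filter beyond 1 count in total and 7, 10, 5 and 3 with at least 10 counts in every library. With the close pairs of replicates summed, the genes higher at an adjusted p of 0.05 dropped to 2, both nidogens, and 6 were lower, of which 6 were past 2-fold: Itgb2, Lama4, Itgb3, Itgb5, Itgam and Itgax. This fit has fewer samples. Leaving out each library in turn gave 8 to 13 lower and 7 to 10 higher, and 5 to 7 and 3 to 4 at 2-fold. By library size only, 22 genes had no overlap between genotypes, against 23.

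The replicate numbers are shared by both genotypes in the labels, and the deviations of same-numbered libraries from their group means correlated at 0.11, -0.16 and -0.18, so the numbers were not taken to pair the samples. With the replicate block 8 genes were lower, 7 of them past 2-fold, and 8 were higher, 3 of them past 2-fold; the calls lost included Lama5 at an adjusted p of 0.105 and Itga11 at 0.083. No library correlated best with its own number.

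No called gene changed sign under any alternative run. Signs changed only among genes that did not pass the test, and the cause was not tested. Leaving out each library in turn gave log2 fold changes from -0.038 (without Pa1-/- replicate 3) to 0.43 for Lama3, -0.13 to 0.11 (without Pa1-/- replicate 3) for Lamc1, -1.86 to 0.095 (without Pa1-/- replicate 1) for Itga8, -0.48 to 0.17 for Itga4, -0.45 to 0.91 for Agrn, -0.34 (without Pa1-/- replicate 3) to 0.83 for Itga1, -0.57 to 0.068 (without Pa1-/- replicate 3) for Itgad and -0.44 (without Pa1-/- replicate 3) to 0.43 for Itga10. Itga4 was above 0 without Pa1F/F replicate 3 or Pa1-/- replicate 1 or 2, and at 0.058 with the close pairs summed. Agrn was at 0.22 by limma-voom and 0.24 with the replicate block. Itga2, Itgb4, Itgb6, Lamb3, Itgae, Itgal, Itgb2l and Itgb7 were too low for a test at this depth.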
